A study of Danio rerio with 12 samples.

Results

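Parvalbumins are a family of small calcium binding proteins, and 9 of the 15502 probe sets analysed on the zebrafish array belong to them. A probe set was taken when its only gene symbol in the array annotation starts with pvalb, which gave 1 probe set for each of pvalb1 to pvalb9. The family was chosen by the measured signals of these arrays, because pvalb6 was highest in the testis and the others, pvalb3 among them, were highest in the body. The values of testis against male body, of testis against ovary, and of ovary against female body for the 8 genes other than pvalb6 are therefore given as a description with no test.

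RNA was measured in 12 samples of adult wild-type zebrafish of the AB strain, 1 array per sample. Testes and the remaining carcass of 3 males, and ovaries and the remaining carcass of 3 females, gave 4 groups of 3 samples: testis, male body, ovary and female body. All fish were full siblings of 4 to 12 months that had spawned and were then kept apart by sex for 5 days, and none carried an allele or received an agent. A body sample is a whole carcass in which muscle, brain, liver and every other organ are mixed, so fewer cells of a type and less RNA per cell cannot be told apart in any value below.

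Parvalbumins bind calcium through EF-hand loops and release it slowly, and they act as soluble buffers that take calcium away from troponin so that a fast muscle fibre relaxes quickly. The white trunk muscle of fish is rich in them. Others of the family mark sets of neurons, such as the Purkinje cells of the cerebellum, and the oncomodulins, a branch of the family, are known from hair cells of the ear. In the order of protein-coding genes of the RefSeq annotation (assembly GRCz12tu, used for names and order only), 4 family members stand next to each other as pvalb8, pvalb4, pvalb1 and pvalb5, and 3 others as pvalb9, pvalb3 and pvalb2. The remaining 2 have no parvalbumin beside them: pvalb6 lies between pdgfbb and csf2rb, and pvalb7 between baiap2l2b and ncf4.

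The unit is the GCOS signal, a linear intensity that the authors scaled to the same trimmed mean on each array. Signals below 32 were set to this floor before log2 was taken, a fold is 2 raised to the difference of log2 means, and a fold against a group that lies wholly at the floor is a lower bound. The summed signals of 6 muscle and of 5 nerve markers were higher on every body array than on any gonad array. Of the longer list of 20 nerve markers, 1 (nrgna) was called higher and 16 lower in testis than in male body. Testis markers were highest in testis. In the male body sycp3 and hormad1 of the meiotic chromosome axis averaged 17.9 and 23.1, under the floor. The other testis markers, tekt1, amh, dmrt1 and ropn1l, averaged above the floor there. Between 10.4% and 18.3% of probe sets were at the floor on testis and body arrays and 33.0% to 35.7% on ovary arrays. The ovary markers were near the floor in the male body, at 0.179% to 0.489% of their mean sum in ovary, but in the female bodies labelled as without ovaries they stood at 81.0%, 56.4% and 39.8% of it in samples 1, 2 and 3. The part of this signal in the differences between the bodies was not tested, and values by female sample are given beside them. Whether the probe sets of paralogs share target sequence was not tested either.

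The genes pvalb1, pvalb2, pvalb3 and pvalb4, known as muscle parvalbumins, shared 1 pattern across the groups. The gene pvalb3 read 241.9, 383.3 and 641.2 in testis and 49467.9, 37500.9 and 39634.5 in male body. It read 50.5, 35.4 and 42.8 in ovary and 20343.1, 29931.6 and 36646.0 in female body. The order was male body, female body, testis, ovary, with no overlap between any neighbours. Its means were 422.1 ± 202.5 in testis, 42201.1 ± 6383.0 in male body, 42.9 ± 7.55 in ovary and 28973.6 ± 8193.6 in female body (SD, n = 3 each). Testis was 107.3-fold below male body (log2 -6.75) and 9.19-fold above ovary (log2 3.20), and ovary was 663.1-fold below female body (log2 -9.37).

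The other genes of this kind had the same order of group means. For pvalb1, the testis samples read 210.3, 198.6 and 170.9 and the male body samples 30117.7, 22342.5 and 26998.5. In ovary pvalb1 read 2.9, 3.9 and 5.9, wholly below the floor, against 13939.2, 18791.3 and 26157.1 in female body. The testis signal was thus 136.5-fold below that of the male body and at least 6.02-fold above that of the ovary, and the ovary lay at least 593.5-fold below the female body. For pvalb2, testis read 489.4, 142.7 and 286.5 and male body 39933.2, 22377.5 and 32419.2, a 113.1-fold gap. Ovary read 44.1, 19.8 and 17.7 for pvalb2, against 17803.6, 20396.9 and 33299.8 in female body. Only ovary 1 was above the floor, so the 644.6-fold gap between ovary and female body and the 7.62-fold gap between testis and ovary depend on the floor. For pvalb4, testis read 118.1, 88.1 and 185.4, against 34483.7, 24169.3 and 31364.8 in male body, a gap of 238.4-fold. Its ovary samples read 4.5, 2.5 and 4.2 and its female body samples 11610.5, 16008.3 and 24041.8, so that ovary was at least 514.7-fold lower and testis at least 3.89-fold above ovary.

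**Figure D1:**
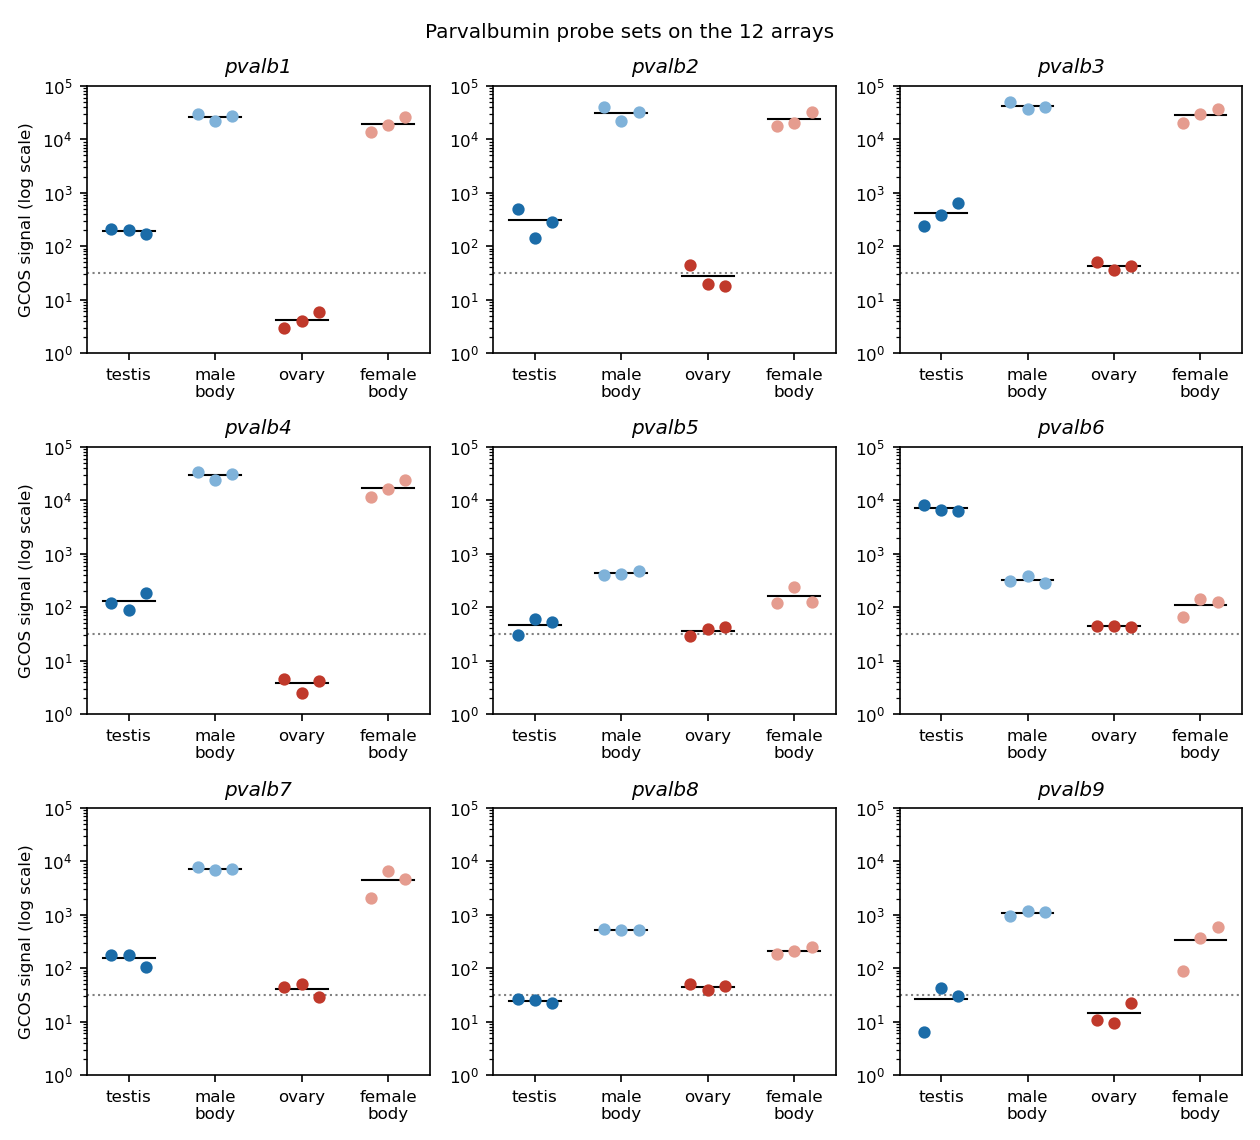
GCOS signal (log scale) of each parvalbumin probe set on the 12 arrays, 1 panel per gene, with testis, male body, ovary and female body from left to right. Points are samples in replicate order, black lines are arithmetic means and the dotted line is the floor of 32; pvalb6 is highest in testis (6358.7 to 8340.6) and the other 8 genes are highest in the male body by group mean.

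The gene pvalb7, which in zebrafish is known from Purkinje cells as well as from muscle, had the same order of means. It read 177.0, 174.0 and 107.5 in testis and 7761.7, 6799.3 and 7234.9 in male body, a gap of 48.7-fold. In ovary it read 45.3, 50.6 and 29.1 and in female body 2090.6, 6563.7 and 4622.0, a gap of 95.3-fold. Testis was 3.56-fold above ovary.

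The oncomodulin genes pvalb8 (also ocma) and pvalb9 (also ocmb) were highest in the male body, next in the female body, and near or under the floor in both gonads. All testis samples of pvalb8 were below the floor, at 26.2, 25.6 and 22.1, against 539.3, 521.0 and 514.1 in male body, which puts testis at least 16.4-fold lower. Ovary read 49.8, 38.8 and 47.1, and female body 184.1, 208.3 and 251.0, a gap of 4.73-fold. It is the only parvalbumin probe set whose testis samples all lay below the ovary samples, by at least 1.41-fold, and both gonads were near the floor. For pvalb9, testis read 6.4, 42.1 and 30.5, with 2 samples at the floor, and male body 930.0, 1170.8 and 1112.3, a gap of 30.4-fold. Ovary read 10.9, 9.3 and 22.6, all at the floor, and female body 90.5, 360.9 and 578.6, so ovary was at least 8.32-fold lower. Testis and ovary overlapped for pvalb9.

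The gene pvalb5 was also highest in the male body, with a smaller gap. It read 30.0, 58.9 and 53.2 in testis and 402.0, 413.5 and 472.4 in male body, a 9.22-fold gap. In ovary it read 28.6, 38.5 and 42.4, overlapping the testis, and in female body 118.9, 235.6 and 124.8, a 4.06-fold gap. The order of its means was male body, female body, testis, ovary, and only the gonads overlapped.

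The gene pvalb6 ran the other way. It read 8340.6, 6711.6 and 6358.7 in testis, 309.4, 388.4 and 279.5 in male body, 45.1, 44.4 and 43.3 in ovary, and 65.5, 142.9 and 125.6 in female body. The order was testis, male body, female body, ovary, with no overlap between neighbours and every sample above the floor. Its means were 7137.0 ± 1057.2 in testis, 325.8 ± 56.3 in male body, 44.3 ± 0.907 in ovary and 111.3 ± 40.6 in female body (SD, n = 3 each). Testis was 22.0-fold above male body (log2 4.46) and 160.1-fold above ovary (log2 7.32). The male body mean of pvalb6 was 4.56% of its testis mean.

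Across the family, 8 probe sets had every testis sample below every male body sample and 1, pvalb6, had every testis sample above. Over all probe sets tested, 29.2% were called higher and 29.9% lower in testis than in male body at an adjusted p under 0.05 (limma), and 34.6% had every testis sample below every male body sample, or 66.6% with both directions of separation counted. Nothing is read from the family's split, which the choice of the family fixed. In testis against ovary 6 family members had every testis sample above every ovary sample, 1 had them below and 2 overlapped, where 49.9% of all probe sets had them above and 26.4% below. By limma calls that background was 42.5% higher and 24.4% lower. That background rests on the scaling, since 5934 probe sets higher and 3413 lower became 4514 and 4635 after quantile normalization and 3884 and 5375 after median centring. In ovary against female body, all 9 members had every ovary sample below every female body sample, which was so for 38.0% of all probe sets tested (29.5% were called lower by limma), and 8 of the 9 were chosen for being high in the body. There 3982 probe sets were called higher and 4177 lower, which became 5467 and 3176 after quantile normalization and 6490 and 3226 after median centring.

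The members' values against the ovary, where many signals are near the floor, moved with the scaling and the floor. For pvalb6 the log2 difference of testis minus ovary was 6.62 after quantile normalization, 6.52 after median centring and 6.15 with a floor of 100, against 7.32 as deposited. For pvalb7 these were 0.45, 1.08 and 0.58, against 1.83, and for pvalb3 1.84, 2.40 and 1.96, against 3.20. The direction turned for the genes whose gonads overlap, pvalb5 at -1.02 (quantile) and -0.36 (median centring) against 0.31, and pvalb9 at -0.25 (quantile) against 0.13. With a floor of 100 the difference was 0.95 for pvalb1, 1.44 for pvalb2 and 0.38 for pvalb4. In ovary minus female body pvalb5 was -0.65 after quantile normalization against -2.02, and pvalb8 was -1.02 against -2.24. The muscle parvalbumins pvalb1 to pvalb4 stayed at -7.36 or lower in ovary minus female body with the floors and scalings tried.

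The low testis signal of the body parvalbumins was read against muscle genes at large. The list of fast muscle contractile and energy genes, which code for the fast myosin, troponin and creatine kinase proteins and the glycolytic enzymes, had 35 of its 56 symbols on the array. In testis against male body 0 of the 35 were called higher and 34 lower, also at an unadjusted p under 0.05. The share lower is 97.1%, beside 29.9% over all probe sets. The median log2 difference of the 35 genes was -6.64 beside -0.12 over all probe sets. Their testis mean was a median of 1.02% of their male body mean, with quartiles of 0.537% and 6.44%. The same share was 0.730% for pvalb1, 0.970% for pvalb2, 1.00% for pvalb3 and 0.435% for pvalb4, 2.10% for pvalb7, 2.46% for pvalb9 and 4.69% for pvalb8. For pvalb5 it was above the upper quartile of the list. The summed signal of 6 muscle markers was 1683.3, 1879.6 and 1764.0 in testis, 208765.8, 156251.1 and 176687.0 in male body, 267.4, 363.6 and 350.9 in ovary and 78128.0, 115235.2 and 158770.9 in female body. Whether muscle RNA in the gonad samples sets the testis signal of pvalb1 to pvalb4 was not tested.

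The testis samples did not rank alike for these genes. Testis 3 was highest for pvalb3 (641.2) and pvalb4 (185.4), testis 1 for pvalb2 (489.4) and pvalb1 (210.3), and the fast muscle list had medians of 109.8, 125.8 and 122.8 in the 3 samples. In ovary the fast muscle list had a median at the floor on all 3 arrays. In testis against ovary 25 of the 35 were called higher and 4 lower, with a median of 1.08 beside 0.36 over all probe sets. The shares are 71.4% and 11.4%, beside 42.5% and 24.4% over all probe sets. The number higher was 13 after quantile normalization.

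**Figure D2:**
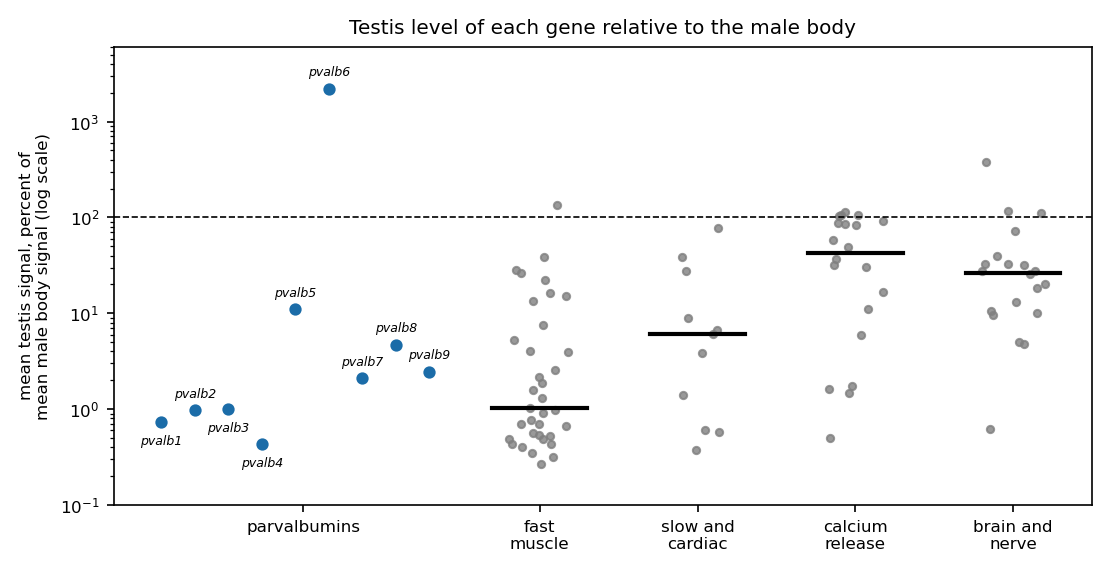
Mean testis signal as a percent of the mean male body signal of the same gene (log scale), for the 9 parvalbumin probe sets (blue) and for the genes of 4 lists (grey; black lines are medians). The dashed line is equal signal; the fast muscle median lies at 1.02%, pvalb1 to pvalb4 between 0.435% and 1.00%, and pvalb6 alone of the family lies above the line.

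The calcium handling and calcium binding genes beside the parvalbumins were split. Of 20 muscle calcium release and uptake genes on the array, 0 were called higher and 11 lower in testis than in male body (0 and 12 at an unadjusted p under 0.05), with a median log2 of -1.23. The muscle calcium pump gene atp2a1l averaged 117.0 ± 10.2 in testis and 23413.4 ± 1677.2 in male body (SD, n = 3 each; difference of -7.65 on the log2 scale, SE 0.13, limma adjusted p = 2.2e-07). Its paralog atp2a1, which codes for a pump of the same kind, averaged 614.0 ± 161.4 in testis and 10346.4 ± 1627.6 in male body (difference of -4.10 on the log2 scale, SE 0.23, adjusted p = 7.8e-06). The list of 51 other EF-hand genes includes anxa2a, which is an annexin gene and not an EF-hand one. It also includes tnnc1a, which stands in the slow and cardiac list too, and efhc2, which stands in the axoneme and sperm flagellum list too. Of the 51, 10 were called higher and 29 lower in testis than in male body, and the median was -0.98. These are 19.6% and 56.9% of the list, beside 29.2% and 29.9% over all probe sets. The calmodulin gene calm3b was among the 10, at 11488.0 ± 1376.5 in testis and 6644.9 ± 786.5 in male body (difference of 0.79 on the log2 scale, SE 0.14, adjusted p = 0.0023). A testis excess as large as that of pvalb6 was also in this list. Its highest log2 difference was 6.75, beside 4.46 for pvalb6. Before flooring, the testis means of clxn, efhc2 and cetn4 were 26946.7%, 10669.5% and 2196.3% of their male body means. The same percent was 2190.8% for pvalb6. In testis against ovary 12 of 19 calcium release genes were called higher and 6 lower (63.2% and 31.6%), and 28 of 47 EF-hand genes were called higher and 9 lower (59.6% and 19.1%). Over all probe sets 42.5% were called higher and 24.4% lower. The number of calcium release genes higher in testis was 7 after quantile normalization and 3 after median centring.

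The testis signal of pvalb6 was set beside that of sperm genes. Of 33 axoneme and sperm flagellum genes, which build the motile tail, 30 were called higher and 1 lower in testis than in male body, with a median log2 difference of 5.21 beside 4.46 for pvalb6. The male body mean of these genes was a median of 2.28% of their testis mean, against 4.56% for pvalb6. On male body arrays 1, 2 and 3, 11, 10 and 10 of the 33 genes were at or below the floor. The floor limits the log2 differences of those genes, while pvalb6 read 309.4, 388.4 and 279.5 there. The sperm tail tubulin gene tuba7l averaged 12878.4 ± 800.0 in testis and 123.6 ± 21.1 in male body (difference of 6.72 on the log2 scale, SE 0.17, adjusted p = 3.5e-07). The summed signal of 6 testis markers was 35978.0, 32944.7 and 34938.5 in testis and 323.7, 283.1 and 367.7 in male body, where 2 or 3 of the 6 were at the floor. In testis against ovary 29 of 33 axoneme genes were called higher and 1 lower. The shares called higher are 90.9% against male body and 87.9% against ovary, beside 29.2% and 42.5% over all probe sets.

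The genes whose floored log2 signal was most like that of each paralog over the 12 arrays were named by their Pearson correlation, which is a description over samples that share fish and groups. For pvalb3 these were ambp (0.998), the fast myosin light chain gene mylz3 (0.997), the apolipoprotein gene apoc2 (0.997), slc27a2a (0.997) and leg1.1 (0.995). The pvalb3 testis samples were 241.9, 383.3 and 641.2, ambp read 89.4, 152.2 and 287.5 in the same samples, and apoc2 read 128.9, 122.8 and 437.1. There slc27a2a read 82.5, 86.2 and 120.5, and leg1.1 read 137.7, 174.5 and 454.8. The genes ambp, apoc2, slc27a2a and leg1.1 were all highest in testis 3, as pvalb3 was, while mylz3 read 278.0, 281.1 and 280.4. For pvalb6 the genes were smarca1 (0.995), which codes for a chromatin remodelling enzyme, chmp5b (0.994), of the membrane-cutting ESCRT complex, si:ch211-10a23.2 (0.993), the ribosome maturation gene sbds (0.993) and unc13d (0.992). Each kept a larger share of its testis mean in the other groups than pvalb6 did: smarca1, for example, averaged 2989.5 in testis, 387.4 in male body, 112.9 in ovary and 215.9 in female body.

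**Figure D3:**
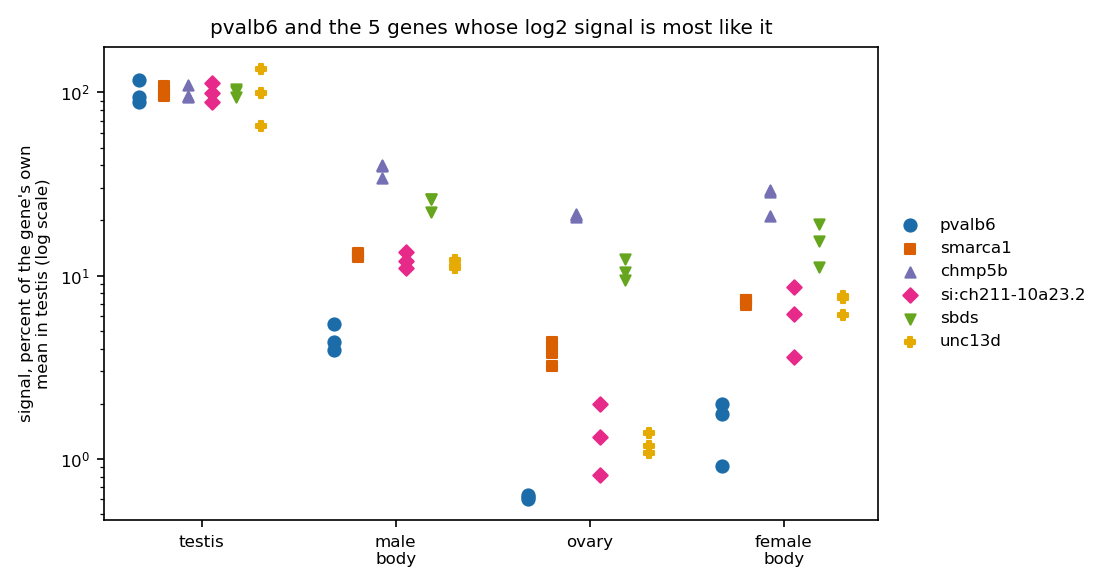
Signal of pvalb6 and of the 5 genes with the most similar log2 pattern, each as a percent of its own mean in testis (log scale), in testis, male body, ovary and female body. Points are samples; all 6 genes are highest in testis, and pvalb6 holds the lowest percent of its testis level in each other group by mean, with a male body mean of 4.56%.

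Within the family, pvalb1 to pvalb4 had pairwise correlations of 0.99 to 1.00 over the 12 arrays. With these 4 genes, pvalb7 correlated at 0.98 to 0.99 and pvalb5, pvalb8 and pvalb9 at 0.89 to 0.94. Correlations over the 12 arrays contain the gap between body and gonad by which the family was chosen, so nothing is read from them. The correlation of pvalb6 with the other members was between -0.31 and -0.01 over the 12 arrays, and between 0.52 and 0.94 over the 6 body arrays, which share the low female body 1.

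The comparison of male with female body asked whether the family differs between the body samples of the sexes, and all 9 members could be tested in it. The female bodies held ovary marker signal, at 81.0%, 56.4% and 39.8% of the ovary mean in samples 1, 2 and 3. The comparison is therefore not one of tissue free of ovary signal. At an adjusted p under 0.05, 4 members were called higher in the male body and 0 lower (5 and 0 at an unadjusted p), where 18.0% of all probe sets were called higher and 12.9% lower. The 4 were pvalb5, pvalb6, pvalb8 and pvalb9. In 7 of 9 members every male body sample was above every female body sample, against 32.5% of all probe sets, and the median log2 difference over all probe sets was 0.27. Once the arrays were scaled to the median of the fast muscle list, an alternative added after the data had been seen, 0 members were called in either direction, also at an unadjusted p under 0.05. That scaling subtracts the same 0.99 from the difference of every member. The sign of a member with a smaller difference thus turns by construction and says nothing of that member.

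The oncomodulin genes were among the 4. The body samples of pvalb8, at 514.1 to 539.3 in males and 184.1 to 251.0 in females, gave a 2.47-fold higher male mean (difference of 1.30 on the log2 scale, SE 0.22, limma adjusted p = 0.0069). For pvalb9 the male body was 4.00-fold higher (difference of 2.00 on the log2 scale, SE 0.61, adjusted p = 0.041), with female samples of 90.5, 360.9 and 578.6 and the largest SE of the family. The call of pvalb9 was lost whichever male body sample was left out (adjusted p of 0.093, 0.1 and 0.11 without samples 1, 2 and 3) and without female body 2 (0.068). Without female body 1 its difference was 1.22 (adjusted p = 0.023), so that sample moved the value by more than any other.

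Hair cell markers were few on the array. Of 4 that could be tested, 0 were called in either direction in male against female body, also at an unadjusted p under 0.05 (limma). Their median was 0.31, and 1 was called higher without male body 3. Over all probe sets 18.0% were called higher and 12.9% lower, so 0 of 4 is too few to read anything from. The gene atp2b1a among them also stands in the calcium release and uptake list. Of the 5 hair cell markers fixed for the check of labels only myo7aa was matched, at 55.8, 59.5 and 47.8 in male body and 35.6, 43.7 and 76.5 in female body, overlapping and near the floor.

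The gene pvalb5 was 2.82-fold higher in the male body (difference of 1.50 on the log2 scale, SE 0.32, adjusted p = 0.015), with no overlap between 402.0 to 472.4 in males and 118.9 to 235.6 in females. Without male body 3 the adjusted p was 0.061. For the testis paralog pvalb6 the male body was 3.06-fold higher (difference of 1.61 on the log2 scale, SE 0.36, adjusted p = 0.017), at 279.5 to 388.4 in males and 65.5 to 142.9 in females. Its call was lost whichever male body sample was left out, at adjusted p of 0.054, 0.058 and 0.051, while the difference stayed between 1.48 and 1.72. The testis markers sycp3 and hormad1 were under the floor by mean in both bodies beside this difference. They averaged 17.9 and 23.1 in male body and 3.97 and 13.6 in female body. The means of tekt1, amh, dmrt1 and ropn1l were above the floor in male body. Those of dmrt1 and ropn1l were also above it in female body. The summed signal of all 6 testis markers was 323.7, 283.1 and 367.7 in male body and 182.0, 228.5 and 163.2 in female body, without overlap, and its part in the pvalb6 difference was not tested.

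The 5 other members, pvalb1 to pvalb4 and pvalb7, were not called. Male over female body was 1.38-fold for pvalb1 (difference of 0.47 on the log2 scale, SE 0.30, adjusted p = 0.25) and log2 0.42 for pvalb2 (SE 0.35, adjusted p = 0.36), and the samples overlapped for both. For pvalb3 the difference was 0.57 (SE 0.31, adjusted p = 0.18), for pvalb4 0.85 (SE 0.33, adjusted p = 0.08) and for pvalb7 0.86 (SE 0.39, adjusted p = 0.12), each with no overlap. With female body 3 left out pvalb4 was called (log2 1.12, adjusted p = 0.026). Each of the 5 differences as deposited is smaller than the 0.99 by which scaling to the fast muscle list lowers every member. They were thus negative after it by construction, and nothing is read from that sign.

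The female samples differed among themselves. Female body 1 was the lowest of the 3 female body arrays for all 9 members, which was so for 45.9% of all probe sets tested. In 6 members, pvalb1 to pvalb4, pvalb8 and pvalb9, female sample 3 was the highest and sample 2 lay between, and in pvalb5, pvalb6 and pvalb7 sample 2 was the highest. As a percent of the male body mean, pvalb3 stood at 48.2%, 70.9% and 86.8% in female samples 1, 2 and 3 and pvalb9 at 8.45%, 33.7% and 54.0%. In the same samples pvalb5 stood at 27.7%, 54.9% and 29.1%, pvalb6 at 20.1%, 43.9% and 38.6%, and pvalb7 at 28.8%, 90.3% and 63.6%. The fast muscle list stood at a median of 31.3%, 63.3% and 85.5% in these samples and the brain and nerve list at 32.2%, 50.3% and 63.3%. The ovary markers stood at the 81.0%, 56.4% and 39.8% given above, the reverse of the order of the fast muscle list and of 6 of the 9 members. Their part in the differences of the parvalbumins was not tested.

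**Figure D4:**
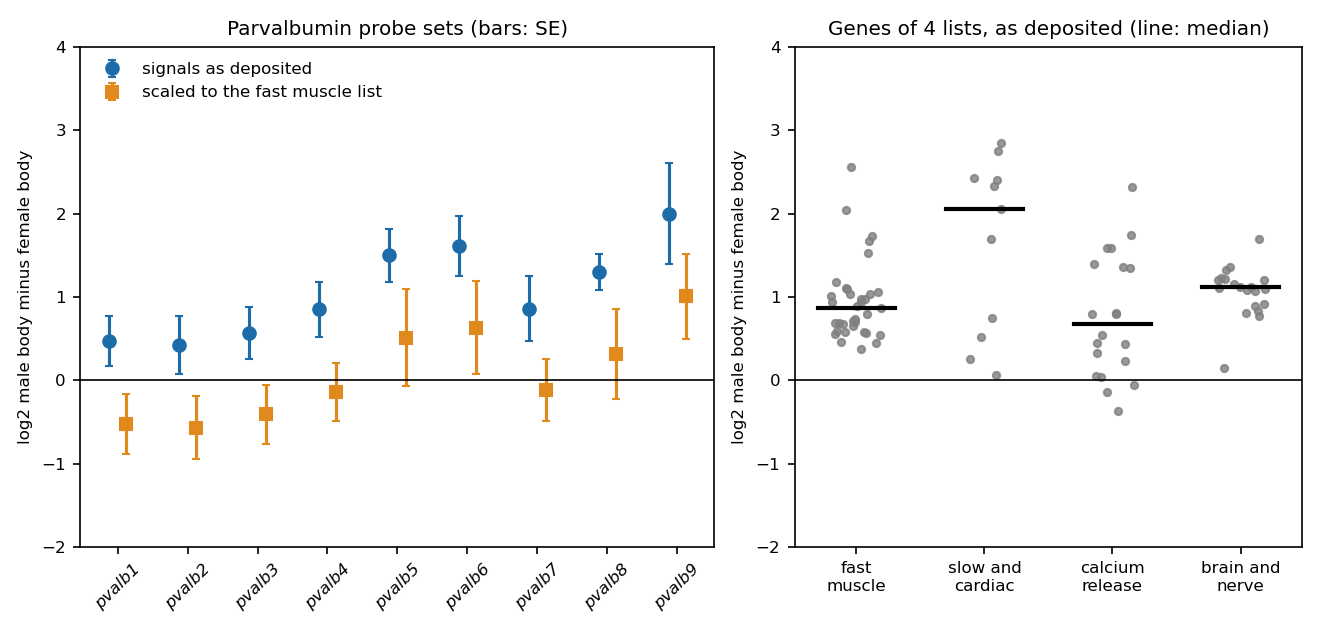
Log2 difference of male body minus female body. On the left are the 9 parvalbumin probe sets with signals as deposited (circles) and scaled to the fast muscle list (squares), with SE bars, and on the right the genes of 4 lists as deposited, with median lines; the members lie between 0.42 and 2.00 as deposited and between -0.57 and 1.01 after the scaling, which lowers each by the same 0.99.

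The muscle and nerve lists had unequal shares of calls between the bodies, beside 18.0% higher over all probe sets. The share higher in the male body was 14.3% in the fast muscle list, below that background, and 63.6% in the slow and cardiac, 40.0% in the calcium release, 26.0% in the EF-hand and 70.0% in the brain and nerve list. In the fast muscle list 5 of 35 were called higher and 0 lower (13 and 0 at an unadjusted p under 0.05), with a median of 0.87, and the number higher was 18 without female body 3, 2 without female body 2 and 1 without male body 1 or 3. The troponin gene tnni2a.4 averaged 3808.0 ± 1751.2 in male body and 823.0 ± 626.9 in female body (difference of 2.56 on the log2 scale, SE 0.79, adjusted p = 0.042). The myosin binding protein gene mybpc2b averaged 10741.8 ± 1590.8 in male body and 2739.7 ± 1006.2 in female body (difference of 2.04 on the log2 scale, SE 0.32, adjusted p = 0.0049). Of 11 slow and cardiac muscle genes 7 were called higher and 0 lower (7 and 0 unadjusted), with a median of 2.05, and the heart myosin light chain gene myl7 was highest at log2 2.85 (SE 0.70, adjusted p = 0.023). In testis against male body 0 of these 11 were called higher and 10 lower (the same unadjusted). That is 90.9% lower, beside 29.9% over all probe sets. In testis against ovary 2 of 7 were called higher and 0 lower, or 28.6% higher beside 42.5% over all probe sets. The 7 calls between the bodies became 3, 3 and 1 without male body 1, 2 and 3.

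Among the 20 calcium release and uptake genes 8 were called higher in the male body and 0 lower (12 and 0 unadjusted), with a median of 0.67, and the 8 became 3, 3 and 2 without male body 1, 2 and 3 and 4 without female body 2. The pump gene atp2a1 averaged 10346.4 ± 1627.6 in male body and 2185.2 ± 894.4 in female body (difference of 2.32 on the log2 scale, SE 0.33, adjusted p = 0.0037), while atp2a1l differed by 0.80 (SE 0.30, adjusted p = 0.076). The calcium store gene casq2 differed by 1.59 (SE 0.48, adjusted p = 0.04). Of 50 genes of the other EF-hand list 13 were called higher and 3 lower, with a median of 0.63. The 13 include tnnc1a, which is also counted among the slow and cardiac calls. The 13 became 5, 7 and 5 without male body 1, 2 and 3, and 8 and 20 when female body 2 or 3 was left out. The gene s100a1, a calcium sensor of the S100 family, was lowest at log2 -5.92 (SE 0.41, adjusted p = 6.4e-05), with 16.5 ± 15.7 in male body, 5278.4 ± 996.6 in ovary and 2205.1 ± 1165.6 in female body. The gene sparc, of the extracellular matrix, was higher in the male body by 1.92 (SE 0.59, adjusted p = 0.044).

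Of 20 brain and nerve markers 14 were called higher in the male body and 0 lower (18 and 0 unadjusted), with a median of 1.11, and the myelin gene mbpa was highest at 1.69 (SE 0.23, adjusted p = 0.0029). The 14 became 3, 3 and 2 without male body 1, 2 and 3 and 5 without female body 2. In testis against male body 1 nerve marker was called higher and 16 lower, and in testis against ovary 13 higher and 1 lower. The former are 5.00% and 80.0% of the list, beside 29.2% and 29.9% over all probe sets. The latter are 65.0% and 5.00% of the list, beside 42.5% and 24.4% over all probe sets. Of 4 Purkinje cell markers, which share the cell type known for pvalb7, pcp4a (log2 1.24, adjusted p = 0.031) and ca8 (1.18, adjusted p = 0.025) were called higher in the male body and 0 lower (2 and 0 unadjusted), which became 0 without male body 1, male body 3 or female body 2 and 1 without male body 2. In testis against male body 2 of the 4 were called higher and 2 lower, and in testis against ovary 3 higher and 0 lower. The axoneme list had 4 of 28 called higher and 3 lower in male against female body, with a median of 0.00. These are 14.3% and 10.7% of the list, near the 18.0% and 12.9% over all probe sets. The 4 became 2 without male body 3, female body 1 or female body 2. Of the hair cell markers, 0 of 4 were called in testis against male body, also unadjusted, and in testis against ovary 2 were higher and 1 lower, where with any 1 sample left out at most 1 was higher and at most 1 lower.

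The ovary against the female body asked whether pvalb6 was also higher in the female gonad. The female bodies held ovary marker signal, at 81.0%, 56.4% and 39.8% of the ovary mean, so they were not free of ovary signal. The gene pvalb6 was 2.38-fold lower in ovary (difference of -1.25 on the log2 scale, SE 0.32, limma adjusted p = 0.012). It read 43.3 to 45.1 in ovary and 65.5 to 142.9 in female body, with no overlap. Both groups were close to the floor of 32, and the call was lost with a floor of 64 (log2 -0.72, adjusted p = 0.065). It was also lost with a floor of 100 (-0.28, adjusted p = 0.12) and after median centring (-0.55, adjusted p = 0.17). The plain 2-sample test did not call it either (-1.33, adjusted p = 0.081). The direction turned after quantile normalization (0.10, adjusted p = 0.78), where the median of all probe sets was 0.31. The call held whichever sample was left out, at adjusted p of 5.2e-04 to 0.043.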

How the data were processed

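The deposited intensity values are GCOS 1.2 signals that the authors made from the probe pairs of each probe set, with mismatch values subtracted, and scaled per array to a common mean after trimming 2% at each end (500.09 to 500.16 in the values). Their other algorithms were not used. The 115 controls among 15617 probe sets were removed. Signals were floored at 32, and a probe set was tested where at least 1 array of the pair was above it. Each pair of groups was fitted with limma 3.58.1 in R 4.3.3 (lmFit, eBayes with an intensity trend) on log2 signals of its 6 arrays, with two-sided p-values adjusted by Benjamini-Hochberg over all probe sets tested. Tables were made in Python 3.11.15. The fits were tested on simulated data with independent normal values and the same spread in both groups. Those data held no shift shared by the genes of an array, so they say nothing of how such a shift affects the calls.

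Names came from the array annotation and RefSeq: 10795 probe sets had 1 symbol, 135 several and 4572 none listed; genes were named only where there was 1. The 8 lists are fast muscle, slow and cardiac muscle, calcium release and uptake, other EF-hand, brain and nerve, Purkinje cell, hair cell, and axoneme genes, each gene represented by its brightest probe set. Named are all parvalbumins, the 5 genes most correlated with pvalb3 and with pvalb6, and list genes among the 3 brightest or the 5 with the largest called male to female body difference. The members and lists were chosen with earlier results of these data known. Same-numbered gonad and body arrays deviated together (correlation 0.30 to 0.31 in males and 0.24 to 0.29 in females, against 0.05 to 0.16 between male and female bodies and -0.05 to 0.04 between testis and ovary). Different-numbered gonad and body arrays correlated at -0.2 to -0.12 in males and -0.18 to -0.04 in females, and different-numbered male and female bodies at -0.12 to 0.06. The labels do not say which gonad and body came from the same fish. An effect of the fish and one of the replicate number cannot be told apart. Array number limits the precision, and replicates correlated at 0.919 to 0.983 (log2).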

Additional observations from a re-analysis of the deposited data

Results flagged for a closer look

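The gonad minus body difference of pvalb6 had opposite signs in the sexes. It was log2 4.46 for testis against male body, a sign fixed by the choice of pvalb6 as the testis paralog. For ovary against female body it was -1.25, near the floor. That value was -0.28 with a floor of 100, -0.55 after median centring and 0.10 after quantile normalization, so its sign rests on the scaling. The male minus female difference of pvalb8 also had opposite signs, log2 1.30 between the bodies and -0.49 between testis and ovary, where all testis samples were at the floor. The differences between these pairs of contrasts were not tested.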

How the results depend on the processing

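The counts of values that follow leave out the scalings to the muscle and nerve lists, under which pvalb1 to pvalb4 and pvalb7 turned negative by construction. Of 561 values of the members under other floors, other scalings, fits and left-out samples, 4 changed sign. These were pvalb5 (-1.02 and -0.36) and pvalb9 (-0.25) in testis against ovary and pvalb6 (0.10) in ovary against female body. Of 144 male to female body values 129 kept their side of the threshold, 12 lost and 3 gained the call, and of 402 descriptive values 322 moved by less than the spread of replicates and 80 by more. The filter on the mean signal, the 1 fit of 12 arrays, the fit with no intensity trend and the replicate block cannot change a log2 difference. Their values among the 561 and the 402 therefore agree by construction. Of the 4 members called higher in male body, 1 (pvalb8) remained in the plain 2-sample test, and 1 to 5 were called with 1 sample left out: 2 without male body 1 or 2, 1 without male body 3. Scaling to the muscle or nerve list, added after seeing the data, left 0 higher. It shifts every member by -0.99 (muscle) and -1.19 (nerve) by construction, and moved the median of all probe sets to -0.57 and -0.76. With the muscle and nerve scaling the values were -0.52 and -0.72 for pvalb1 (adjusted p = 0.037 in the nerve scaling), -0.57 and -0.77 for pvalb2, -0.41 and -0.62 for pvalb3, -0.14 and -0.34 for pvalb4, and -0.12 and -0.33 for pvalb7. For pvalb6 in ovary against female body the log2 difference was -0.72 and -0.28 with floors of 64 and 100, 0.10 after quantile normalization, -0.55 after median centring and -1.33 in the plain test (adjusted p = 0.081), and -1.60 to -1.04 with 1 sample left out. With the replicate number as a block it was -1.25 (adjusted p = 0.006), and the block changed no call of a member. The labels do not say that a number pairs gonad and body of a fish. In male against female body a number joins different fish, so the block is no pairing there.

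Counts of list genes higher in male body became 15 (1 fit of 12 arrays) and 0 (plain test) for fast muscle, 5 (floor of 100) and 0 (plain test) for calcium release, and 0 in the plain test for slow and cardiac, EF-hand and nerve genes. For the axoneme list they were 1 with a floor of 64, 2 after quantile normalization, and 0 with a floor of 100, a mean of at least 200 or the plain test. With 1 sample left out they ran over 1 to 18, 1 to 8, 2 to 10, 5 to 20, 2 to 18 and 2 to 3 for fast, slow, calcium, EF-hand, nerve and axoneme genes. In testis against ovary the fast muscle count was 16, 13, 5, 13 and 16 (floors of 64 and 100, a mean of at least 200, quantile, median centring), the slow muscle count 4 with a floor of 16, 0 with higher floors or the filter and 1 in the other fits, the calcium count 7 and 3 (quantile, median centring) and the nerve count 8 (filter). Leaving out 1 sample gave 20 to 24, 0 to 3, 9 to 12, 25 to 28, 11 to 13 and 28 to 29 in the same order, and 0 to 1 hair cell genes. In testis against male body it gave 33 to 34, 10 to 10, 11 to 12, 27 to 29 and 16 to 16 lower and 30 to 30 axoneme genes higher. The causes were not tested. Over all probe sets 2688 higher and 1925 lower in male body became 4027 and 2520 in 1 fit of 12 arrays and 32 and 21 in the plain test, and 15 and 992 with the muscle scaling.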

Other observations

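Of 20 brain and nerve markers 16 were called lower and 1 higher in testis than in male body (median log2 -1.91), and the genes named here were chosen after their values were seen. The neuronal calmodulin binding gene nrgna averaged 2253.8 ± 972.6 in testis, 598.5 ± 80.2 in male body and 8.90 ± 2.91 in ovary (SD, n = 3 each). It was the 1 nerve marker called higher in testis than in male body (difference of 1.84 on the log2 scale, SE 0.29, limma adjusted p = 0.0011). The synaptic vesicle gene sypb averaged 926.4 ± 22.6 in testis and 834.0 ± 191.2 in male body (adjusted p = 0.46), against 14.3 ± 5.16 in ovary. The Purkinje list gene pcp4l1 averaged 1298.7 ± 46.4 in testis and 91.4 ± 21.3 in male body (difference of 3.85 on the log2 scale, SE 0.21, adjusted p = 7.3e-06), while its relative pcp4a averaged 55.2 ± 15.0 in testis and 511.2 ± 71.5 in male body (difference of -3.24 on the log2 scale, SE 0.27, adjusted p = 4.5e-05). The myelin gene mbpa was near the floor in testis, at 42.2 ± 20.0, against 6802.7 ± 609.4 in male body. Its relative mbpb was not, at 928.4 ± 142.3 in testis and 796.1 ± 57.6 in male body (difference of 0.21 on the log2 scale, limma adjusted p = 0.29).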
